A study of Mus musculus with 20 samples.

Results

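Ribosome biogenesis and nucleolar genes were followed in Hepa1-6 cells, a hepatoma line of the mouse. The set was given as 40 gene symbols, which were looked up in the platform annotation, and each gene was read from its probe set with the highest mean over the 20 arrays. By that rule 39 of the 40 genes were measured, out of 18193 genes on the arrays. Mrto4, an assembly factor of the large subunit's stalk, was left out, because its probe set is also annotated to other genes. The treated cells had 1 ng/ml TGFβ1, a growth factor of the transforming growth factor family that activates SMAD proteins, for 0, 1, 3, 6 or 10 h, and the untreated cells were taken at the same times with no addition. All cells, untreated ones included, had been moved to growth factor depleted medium 4 h before the start. Each of the 10 groups held 2 biological replicates of this single line, and the labels call the treated 0 h cells equivalent to the untreated 0 h cells. The comparison with untreated cells at the same time asks what TGFβ1 changed. In untreated cells, the comparison with 0 h asks what changed with time in the depleted medium. In treated cells, time in that medium and exposure to TGFβ1 changed together, so their comparison with 0 h cannot tell them apart.

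Ribosomes are built mainly in the nucleolus, where RNA polymerase I transcribes the precursor of most ribosomal RNA. Box C/D and box H/ACA ribonucleoproteins (snoRNPs) modify this precursor, and large sets of assembly factors then cut, fold and export the small and the large subunit. The process takes much of the energy and transcription of a growing cell, and many of its genes are known targets of the transcription factor MYC.

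MYC with its partner MAX binds the E-box CACGTG, which reads the same on both strands, and the promoters of the set were searched for these letters. RefSeq promoter sequences of GRCm38.p6, which run from 250 bases before the annotated start through the first 50 bases after it, were found for 35 of the 40 genes. The motif was in the promoter of 7 of these 35 genes (20%), against 8.09% of all 27025 genes with such a sequence. A gene with several promoter sequences was counted if any of them held the motif. In the bases from the start on, it was in 6 of 35 genes (17.1%), against 1.28% of all these genes. In the 250 bases before the start, it was in 1 of 35 (2.86%), against 6.86% of all these genes. The 7 windows are shown because they carry this shared feature; capitals mark the motif, each sequence is given 5′ to 3′ on the gene's strand, and bases are counted from 1 at the annotated start, with negative numbers before it.
Ltv1, chr10:13193094-13193119, minus strand, first capital at base 29: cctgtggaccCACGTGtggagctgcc
Mybbp1a, chr11:72441357-72441376, plus strand, first capital at base 41: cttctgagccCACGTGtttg
Nop2, chr6:125131813-125131838, plus strand, first capital at base -60: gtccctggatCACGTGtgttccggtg
Pes1, chr11:3963967-3963992, plus strand, first capital at base 3: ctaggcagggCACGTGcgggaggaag
Tsr1, chr11:74898094-74898119, plus strand, first capital at base 25: acttggtgcaCACGTGgactgcagaa
Utp20, chr10:88826765-88826787, minus strand, first capital at base 38: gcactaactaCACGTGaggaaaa
Wdr43, chr17:71616222-71616247, plus strand, first capital at base 18: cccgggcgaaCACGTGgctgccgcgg
Of these genes, Nop2 was lower in treated than in untreated cells at 3 and 6 h and Tsr1 at 3 h, and the other 5 were past the threshold at no time in that comparison. A match of letters is a description, and binding was not measured.

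All values are on the log2 scale of RMA, where a difference of 1 is a factor of 2, and differences were tested with limma over all 20 arrays with Benjamini-Hochberg adjustment over 18193 genes and a threshold of 0.05. The number of arrays limits the precision: the standard error (SE) of a treated-minus-untreated difference of these genes was 0.0381 to 0.0904 (median 0.0589), against a median of 0.126 over all genes. All 39 genes had a mean above that of the median gene on the arrays. The liver cell label was checked on 8 measured hepatocyte markers: Alb (mean 12.01) and Afp (12.78) lay far above the array medians of the tested genes (6.29 to 6.35), and Apoa1, Apoa2, Hnf4a, Ttr, Apob and Ahsg lay at 6.57 or below. Of the markers of other cell types, Dcn, a fibroblast gene, stood at 13.42 while the other 5 fibroblast markers lay at 5.40 or below, and the cholangiocyte markers Krt7 (10.24), Epcam (9.94) and Sox9 (8.43) also lay above the array medians, with Krt19 at 6.78. The 4 endothelial markers lay at 5.36 or below and the 6 leukocyte markers at 6.63 or below. In a culture, less RNA per cell and fewer cells of a kind cannot be told apart from these values.

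In treated against untreated cells, more genes of the set were lower than higher at 3 and 6 h, and none was lower at 10 h. At 3 h, 11 of 39 genes were lower and Bop1 was higher, and the differences ran from -0.50 to 0.30 with a median of -0.14. Over all genes tested, 8.55% were lower and 6.73% higher at 3 h, with a median of -0.02. At 6 h, 11 of 39 were lower and 2 higher (Bop1 and Rrs1), against 7.96% lower and 7.77% higher over all genes, and the median of the set was -0.11. At 10 h, 0 were lower and 3 were higher (Dkc1, Bop1 and Rrp1b), against 4.06% lower and 5.07% higher over all genes. The median at 10 h was 0.06, and 12 of the 39 had an unadjusted p under 0.05.

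Before these times, little differed. At 0 h, 0 of 39 genes and 0 (0%) of all genes were past the threshold by limma, with 3 of the 39 at an unadjusted p under 0.05. At 1 h, 0 of 39 were past it (7 unadjusted), against 2.24% of all genes in either direction, and the median was -0.01. The largest differences at 1 h were 0.20 for Rrp12 and -0.14 for Gnl3, neither past the threshold. By sign, 36 of the 39 lay below 0 at 3 h and 33 at 6 h, while 31 lay above 0 at 10 h. Both treated arrays lay under both untreated arrays for 26 genes at 3 h and 27 at 6 h, against 28.9% and 29.5% of all genes. They lay above both for 1 gene at 3 h and 3 at 6 h, against 22.3% and 21.8% of all genes. At 10 h they lay above both for 19 genes and under both for 2, against 25.4% and 25% of all genes; at 0 h the counts were 9 above and 5 under, against 19.3% and 12.7%. Because well measured genes are called more often, the shares among the 9096 genes above the median level are also given: 15.3% were lower at 3 h, 14.3% lower at 6 h and 9.18% higher at 10 h.

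**Figure D1:**
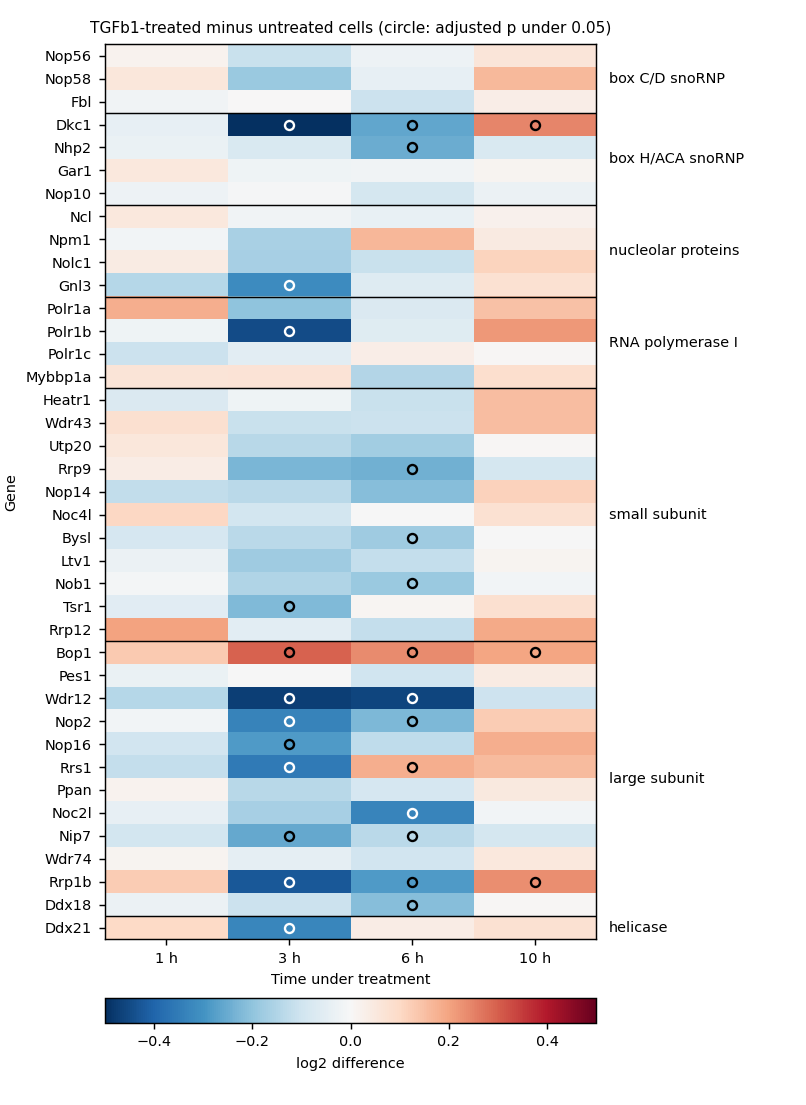
Difference between TGFβ1-treated and untreated cells (log2, colour) for the 39 genes (rows, by role) at 1, 3, 6 and 10 h (columns); circles mark an adjusted p under 0.05. Most cells are blue at 3 and 6 h, with Bop1 red throughout, and most are red at 10 h.

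The box C/D snoRNP, which methylates the ribose of ribosomal RNA, had 0 of its 3 proteins past the threshold at any time of treatment, with 0, 2, 1 and 1 at an unadjusted p under 0.05 at 1, 3, 6 and 10 h. Fbl, its methyltransferase fibrillarin, read 12.57 and 12.56 at 0 h, 12.48 and 12.48 at 1 h, 12.31 and 12.40 at 3 h, 12.16 and 12.18 at 6 h, and 12.16 and 12.19 at 10 h in treated cells. In untreated cells Fbl read 12.53 and 12.46 at 0 h, 12.50 and 12.50 at 1 h, 12.37 and 12.34 at 3 h, 12.29 and 12.27 at 6 h, and 12.15 and 12.14 at 10 h. The levels fell with time in both arms, and the treated-minus-untreated difference was -0.11 ± 0.0384 (SE) at 6 h (adjusted p = 0.061). Nop58, a core protein of the complex, read 11.37 and 11.30 at 0 h, 11.40 and 11.26 at 1 h, 11.23 and 11.18 at 3 h, 11.20 and 11.18 at 6 h, and 11.34 and 11.24 at 10 h in treated cells. Untreated cells gave Nop58 values of 11.35 and 11.28 at 0 h, 11.35 and 11.21 at 1 h, 11.44 and 11.34 at 3 h, 11.34 and 11.13 at 6 h, and 11.19 and 11.07 at 10 h. Both treated arrays were under both untreated arrays at 3 h (-0.19, adjusted p = 0.073) and above them at 10 h (0.16, adjusted p = 0.165). Nop56, its partner, read 11.83 and 11.72 at 0 h, 11.78 and 11.70 at 1 h, 11.69 and 11.70 at 3 h, 11.68 and 11.62 at 6 h, and 11.59 and 11.50 at 10 h in treated cells. In untreated cells Nop56 read 11.76 and 11.69 at 0 h, 11.74 and 11.70 at 1 h, 11.85 and 11.78 at 3 h, 11.73 and 11.62 at 6 h, and 11.54 and 11.43 at 10 h. Its arrays were apart at 3 h alone (-0.11, adjusted p = 0.19).

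The box H/ACA snoRNP, which turns uridines of ribosomal RNA into pseudouridines, held the most clearly lower gene of the set. Dkc1 encodes dyskerin, the pseudouridine synthase of the complex and a part of telomerase. Treated cells gave Dkc1 values of 11.49 and 11.65 at 0 h, 11.58 and 11.48 at 1 h, 11.34 and 11.33 at 3 h, 11.48 and 11.53 at 6 h, and 11.64 and 11.63 at 10 h. Untreated cells gave 11.65 and 11.65 at 0 h, 11.61 and 11.53 at 1 h, 11.85 and 11.82 at 3 h, 11.78 and 11.75 at 6 h, and 11.36 and 11.42 at 10 h. The treated arrays were far under the untreated arrays at 3 and 6 h and above them at 10 h, with neither group's duplicates overlapping the other's. Dkc1 was 1.41-fold lower at 3 h (-0.50 ± 0.0502, adjusted p = 1.93e-07), lower at 6 h (-0.26 ± 0.0502, adjusted p = 0.000736) and higher at 10 h (0.25 ± 0.0502, adjusted p = 0.00252). All 3 probe sets of Dkc1 had these directions, and the 10 h call alone was lost without untreated replicate 1 (adjusted p = 0.0546).

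Nhp2, a core protein of the same complex, was past the threshold at 6 h alone. It read 12.69 and 12.74 at 0 h, 12.63 and 12.69 at 1 h, 12.53 and 12.55 at 3 h, 12.34 and 12.33 at 6 h, and 12.17 and 12.27 at 10 h in treated cells, and 12.72 and 12.78 at 0 h, 12.64 and 12.74 at 1 h, 12.58 and 12.65 at 3 h, 12.58 and 12.58 at 6 h, and 12.25 and 12.33 at 10 h in untreated cells. At 6 h both treated arrays were under both untreated arrays, and Nhp2 was 1.19-fold lower (-0.25 ± 0.0462, adjusted p = 0.000527). The change of its treated-minus-untreated difference from 3 to 6 h was not past the threshold. Nop10, the smallest protein of the complex, read 12.88 and 12.89 at 0 h, 12.92 and 12.85 at 1 h, 12.89 and 12.92 at 3 h, 12.79 and 12.83 at 6 h, and 12.79 and 12.83 at 10 h in treated cells. In untreated cells Nop10 read 12.90 and 12.89 at 0 h, 12.89 and 12.93 at 1 h, 12.91 and 12.91 at 3 h, 12.88 and 12.92 at 6 h, and 12.79 and 12.89 at 10 h. The groups overlapped except at 6 h (-0.09, adjusted p = 0.15). Gar1, the remaining core protein, had differences between -0.02 at 3 h and 0.05 at 1 h, none past the threshold.

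**Figure D2:**
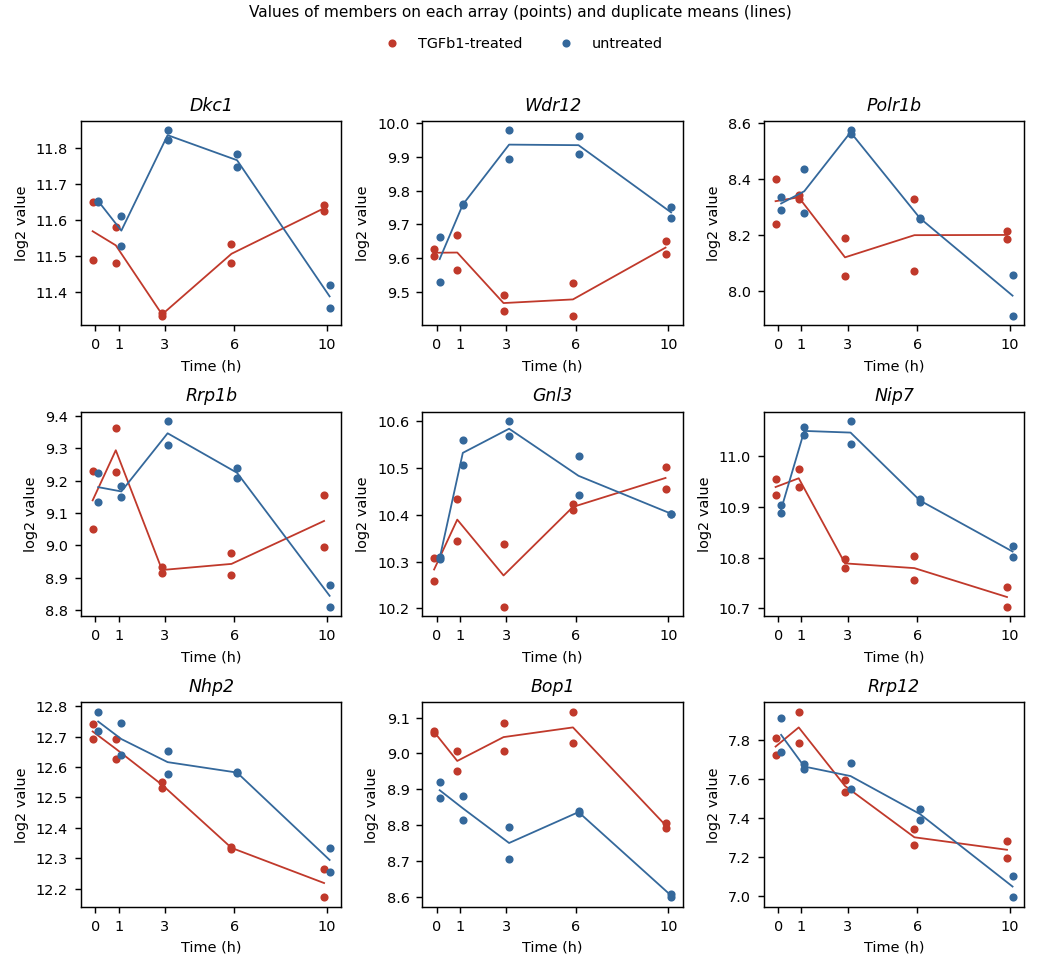
Log2 values of 9 of the genes on each array (points) against time in hours, with the duplicate means joined by lines, in TGFβ1-treated (red) and untreated cells (blue). Dkc1, Wdr12 and Polr1b peak in untreated cells at 3 h and dip in treated cells; Bop1 is higher in treated cells from 0 h on, and Rrp12 falls in both arms.

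Of the abundant nucleolar proteins, only Gnl3 was past the threshold, at 3 h. Gnl3 encodes nucleostemin, a nucleolar GTPase of proliferating cells. It read 10.26 and 10.31 at 0 h, 10.43 and 10.34 at 1 h, 10.20 and 10.34 at 3 h, 10.41 and 10.42 at 6 h, and 10.45 and 10.50 at 10 h in treated cells. In untreated cells Gnl3 read 10.31 and 10.31 at 0 h, 10.56 and 10.51 at 1 h, 10.57 and 10.60 at 3 h, 10.44 and 10.52 at 6 h, and 10.40 and 10.40 at 10 h. The untreated arrays stood above the treated ones at 1, 3 and 6 h and under them at 10 h, and the 3 h difference was -0.31 ± 0.0507 (adjusted p = 0.00011). Nolc1, a chaperone of snoRNPs, read 11.12 and 11.10 at 0 h, 10.99 and 10.84 at 1 h, 10.96 and 10.77 at 3 h, 10.85 and 10.84 at 6 h, and 10.93 and 10.91 at 10 h in treated cells. Untreated cells gave Nolc1 values of 11.09 and 11.00 at 0 h, 10.90 and 10.85 at 1 h, 11.10 and 10.96 at 3 h, 11.02 and 10.90 at 6 h, and 10.81 and 10.81 at 10 h. The groups overlapped at 3 h, where the difference was -0.16 (adjusted p = 0.0924). Npm1, the histone and ribosome chaperone nucleophosmin, read 13.40 and 13.62 at 0 h, 13.59 and 13.43 at 1 h, 13.29 and 13.33 at 3 h, 13.58 and 13.30 at 6 h, and 13.60 and 13.54 at 10 h in treated cells. In untreated cells Npm1 read 13.66 and 13.70 at 0 h, 13.64 and 13.40 at 1 h, 13.55 and 13.39 at 3 h, 13.26 and 13.28 at 6 h, and 13.46 and 13.60 at 10 h. Its duplicates spread widely, and its largest difference under treatment was 0.17 at 6 h (adjusted p = 0.237). Ncl, which encodes nucleolin, differed by -0.04 to 0.05 over 1 to 10 h, with no call.

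RNA polymerase I genes were read from 3 subunits and the nucleolar regulator Mybbp1a, and Polr1b alone passed the test. Polr1b encodes the second largest subunit, which shapes the catalytic core with Polr1a. It read 8.24 and 8.40 at 0 h, 8.33 and 8.34 at 1 h, 8.19 and 8.05 at 3 h, 8.33 and 8.07 at 6 h, and 8.19 and 8.21 at 10 h in treated cells. In untreated cells Polr1b read 8.34 and 8.29 at 0 h, 8.44 and 8.28 at 1 h, 8.57 and 8.56 at 3 h, 8.26 and 8.26 at 6 h, and 7.91 and 8.06 at 10 h. At 3 h the duplicates of the groups lay far apart, and Polr1b was 1.36-fold lower (-0.45 ± 0.0847, adjusted p = 0.000583). Polr1a, the largest subunit, read 8.37 and 8.32 at 0 h, 8.36 and 8.35 at 1 h, 8.29 and 8.07 at 3 h, 8.09 and 8.08 at 6 h, and 8.11 and 8.20 at 10 h in treated cells. Untreated cells gave Polr1a values of 8.41 and 8.30 at 0 h, 8.12 and 8.22 at 1 h, 8.48 and 8.28 at 3 h, 8.19 and 8.12 at 6 h, and 8.09 and 7.94 at 10 h. At 3 h, 1 treated array lay between the untreated arrays, and the difference was -0.20 (adjusted p = 0.127). Mybbp1a read 12.27 and 12.22 at 0 h, 12.27 and 12.16 at 1 h, 12.16 and 12.27 at 3 h, 12.02 and 12.08 at 6 h, and 12.06 and 12.04 at 10 h in treated cells. In untreated cells Mybbp1a read 12.21 and 12.27 at 0 h, 12.10 and 12.21 at 1 h, 12.19 and 12.11 at 3 h, 12.21 and 12.19 at 6 h, and 11.93 and 12.00 at 10 h. Both treated arrays were under both untreated arrays at 6 h (-0.15, adjusted p = 0.0521). Polr1c, a subunit shared with RNA polymerase III, differed by -0.11 to 0.03 over 1 to 10 h, with no call.

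Of the small subunit assembly factors, all 11 lay below 0 at 3 h, with a median of -0.14. Tsr1 alone, 1 of 11, was past the threshold then, against 8.55% of all genes lower. Tsr1, a GTPase-like factor of late small subunit particles, read 11.95 and 12.01 at 0 h, 11.96 and 11.97 at 1 h, 11.83 and 11.79 at 3 h, 11.90 and 11.89 at 6 h, and 11.92 and 11.93 at 10 h in treated cells. In untreated cells Tsr1 read 11.97 and 12.00 at 0 h, 12.04 and 12.01 at 1 h, 12.04 and 12.02 at 3 h, 11.91 and 11.86 at 6 h, and 11.84 and 11.85 at 10 h. The groups were apart at 3 h (-0.22 ± 0.0381, adjusted p = 0.000222) and overlapped at 6 h. At 6 h, 3 of the 11 were lower, namely Rrp9, Nob1 and Bysl, against 7.96% of all genes. Rrp9, a protein of the snoRNP that directs the early cuts of the precursor, read 8.39 and 8.33 at 0 h, 8.22 and 8.11 at 1 h, 8.01 and 8.12 at 3 h, 8.08 and 8.10 at 6 h, and 8.01 and 8.17 at 10 h in treated cells. Untreated cells gave Rrp9 values of 8.22 and 8.08 at 0 h, 8.20 and 8.06 at 1 h, 8.33 and 8.25 at 3 h, 8.36 and 8.30 at 6 h, and 8.14 and 8.21 at 10 h. Rrp9 was higher on both treated arrays at 0 h and lower on both at 3 and 6 h, with -0.24 ± 0.0773 at 6 h (adjusted p = 0.0386). Nob1, the nuclease of the last cut of small subunit RNA, read 9.46 and 9.45 at 0 h, 9.43 and 9.63 at 1 h, 9.42 and 9.40 at 3 h, 9.37 and 9.43 at 6 h, and 9.48 and 9.52 at 10 h in treated cells. In untreated cells Nob1 read 9.58 and 9.44 at 0 h, 9.50 and 9.57 at 1 h, 9.55 and 9.58 at 3 h, 9.60 and 9.58 at 6 h, and 9.48 and 9.54 at 10 h. The duplicates were apart at 3 and 6 h, and the 6 h difference was -0.19 ± 0.0616 (adjusted p = 0.0456).

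Bysl, the bystin of small subunit precursors, was -0.18 at 6 h (adjusted p = 0.0457), and the mean over both its probe sets gave -0.04 (adjusted p = 0.80). The calls of Rrp9, Nob1 and Bysl at 6 h were each lost without any of the 4 arrays of that time in turn, and over the 11 alternatives the adjusted p reached 0.18 for Rrp9 and 0.26 for Nob1. Rrp12, which takes part in subunit export, had the largest positive difference of the set at 1 h, 0.20 ± 0.0861 (adjusted p = 0.417). Its treated values were 7.72 and 7.81 at 0 h, 7.79 and 7.95 at 1 h, 7.54 and 7.60 at 3 h, 7.34 and 7.26 at 6 h, and 7.28 and 7.19 at 10 h. Its untreated values were 7.92 and 7.74 at 0 h, 7.68 and 7.65 at 1 h, 7.55 and 7.68 at 3 h, 7.45 and 7.39 at 6 h, and 6.99 and 7.10 at 10 h. Rrp12 fell with time in both arms, and its treated arrays were above its untreated ones at 1 and 10 h and under them at 6 h. The other 6 small subunit factors (Heatr1, Wdr43, Utp20, Nop14, Noc4l and Ltv1) had no call, with Ltv1, an export factor, nearest at 3 h (-0.18, adjusted p = 0.051).

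Large subunit assembly factors held most of the calls: 6 of the 12 measured were lower at 3 h and 6 at 6 h, with medians of -0.21 and -0.13. Over all genes, 8.55% and 7.96% were lower at these times. Whether the role groups differ from each other was not tested. Wdr12 forms the PeBoW complex with Pes1 and Bop1, which is needed for processing of large subunit RNA. It read 9.61 and 9.63 at 0 h, 9.57 and 9.67 at 1 h, 9.49 and 9.44 at 3 h, 9.43 and 9.53 at 6 h, and 9.61 and 9.65 at 10 h in treated cells. In untreated cells Wdr12 read 9.66 and 9.53 at 0 h, 9.76 and 9.76 at 1 h, 9.89 and 9.98 at 3 h, 9.96 and 9.91 at 6 h, and 9.72 and 9.75 at 10 h. On the probe set used, the treated arrays were under the untreated arrays at every time from 1 to 10 h. Wdr12 was 1.38-fold lower at 3 h (-0.47 ± 0.0564, adjusted p = 2.50e-06) and 1.37-fold lower at 6 h (-0.46 ± 0.0564, adjusted p = 4.14e-06), and its -0.10 at 10 h was the largest negative difference of the set then, without a call. With the mean of its 3 probe sets the 6 h difference was -0.15 (adjusted p = 0.25). Its next brightest probe set gave -0.62, -0.06 and 0.38 at 3, 6 and 10 h, so the sign at 10 h differed. The dimmest gave 0.06, 0.08 and -0.01.

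Bop1, another protein of that complex, went the other way. It read 9.06 and 9.06 at 0 h, 9.01 and 8.95 at 1 h, 9.01 and 9.08 at 3 h, 9.03 and 9.12 at 6 h, and 8.79 and 8.81 at 10 h in treated cells. In untreated cells Bop1 read 8.87 and 8.92 at 0 h, 8.88 and 8.81 at 1 h, 8.71 and 8.79 at 3 h, 8.83 and 8.84 at 6 h, and 8.61 and 8.60 at 10 h. Both treated arrays were above both untreated arrays at every time, 0 h included, where the difference was 0.16 ± 0.0567. Bop1 was higher at 3 h (0.30 ± 0.0567, adjusted p = 0.000674), 6 h (0.24 ± 0.0567, adjusted p = 0.00522) and 10 h (0.20 ± 0.0567, adjusted p = 0.0316). Its other, dimmer probe set gave 0.00, -0.08 and -0.08 at these times, and the mean of both gave no call (0.15 and adjusted p = 0.49 at 3 h). Without any of the 4 arrays of 10 h in turn the 10 h call was also lost, and without treated replicate 2 the 6 h call was. Pes1, the namesake of the complex, lay between -0.10 and 0.04 over 1 to 10 h, with no call.

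Nip7, a factor of both subunits' RNA processing, read 10.95 and 10.92 at 0 h, 10.94 and 10.97 at 1 h, 10.78 and 10.80 at 3 h, 10.76 and 10.80 at 6 h, and 10.70 and 10.74 at 10 h in treated cells. In untreated cells Nip7 read 10.90 and 10.89 at 0 h, 11.06 and 11.04 at 1 h, 11.02 and 11.07 at 3 h, 10.92 and 10.91 at 6 h, and 10.80 and 10.82 at 10 h. The treated arrays were above the untreated ones at 0 h and under them at each later time, and Nip7 was lower at 3 h (-0.26 ± 0.04, adjusted p = 6.73e-05) and 6 h (-0.13 ± 0.04, adjusted p = 0.0256). Rrp1b, a nucleolar protein of large subunit maturation, read 9.05 and 9.23 at 0 h, 9.36 and 9.23 at 1 h, 8.93 and 8.91 at 3 h, 8.91 and 8.98 at 6 h, and 9.15 and 9.00 at 10 h in treated cells. Untreated cells gave Rrp1b values of 9.23 and 9.13 at 0 h, 9.18 and 9.15 at 1 h, 9.38 and 9.31 at 3 h, 9.21 and 9.24 at 6 h, and 8.81 and 8.88 at 10 h. Like Dkc1, its treated arrays were under the untreated ones at 3 and 6 h and above them at 10 h. Rrp1b was 1.34-fold lower at 3 h (-0.42 ± 0.0691, adjusted p = 0.000119), lower at 6 h (-0.28, adjusted p = 0.00617) and higher at 10 h (0.23, adjusted p = 0.0379). Its other 2 probe sets moved less, with -0.09 and -0.11 at 3 h, and the mean of the probe sets gave 0.10 at 10 h (adjusted p = 0.26). The 10 h call was lost under 6 of 11 alternatives, among them without treated replicate 1 and without either untreated replicate, with an adjusted p of up to 0.40.

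Of the other large subunit factors, Nop2, an RNA methyltransferase, was lower at 3 h (-0.33, adjusted p = 0.000169) and again by 6 h (-0.22, adjusted p = 0.00748). Rrs1, which helps bring the 5S RNA particle into the large subunit, was lower at 3 h (-0.35, adjusted p = 0.000152) but higher at 6 h (0.18, adjusted p = 0.0375). Its 6 h call was lost under 6 of 11 alternatives, among them the mean of its probe sets and without treated replicate 1 or either untreated replicate, with differences of 0.09 to 0.27 and an adjusted p of up to 0.49 over the 11. Nop16 was lower at 3 h alone (-0.28, adjusted p = 0.0373). Noc2l (-0.33, adjusted p = 0.000757) and the RNA helicase gene Ddx18 (-0.21, adjusted p = 0.00202) were lower at 6 h. Ppan and Wdr74 had no call, with differences of -0.14 and -0.04 at 3 h. Ddx21, a helicase that acts in both RNA polymerase I transcription and processing, read 9.17 and 9.38 at 0 h, 9.43 and 9.16 at 1 h, 9.05 and 9.12 at 3 h, 9.29 and 9.23 at 6 h, and 9.38 and 9.23 at 10 h in treated cells. In untreated cells Ddx21 read 9.41 and 9.44 at 0 h, 9.31 and 9.08 at 1 h, 9.47 and 9.35 at 3 h, 9.23 and 9.21 at 6 h, and 9.17 and 9.29 at 10 h. The groups were apart at 0 and 3 h with the treated arrays under the untreated ones, and the call was at 3 h (-0.32 ± 0.0899, adjusted p = 0.0154). Its other probe set gave -0.01 at 3 h and -0.25 at 6 h, and the mean of both gave no call at 3 h (-0.17).

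Among the 11 genes lower at 3 h, Dkc1, Gnl3, Nip7, Nop2, Polr1b, Rrp1b, Rrs1, Tsr1 and Wdr12 stayed past the threshold under all 11 alternative settings. Nop16 lost its call under 6 of them, among them without treated replicate 2 or either untreated replicate of 3 h, and Ddx21 under 4, among them without replicate 1 of either group; their adjusted p reached 0.28 and 0.16. At 6 h, Dkc1, Nhp2 and Noc2l stayed past it under all 11. Left without treated replicate 1 of 6 h the count of lower genes was 5, without treated replicate 2 it was 8, and without untreated replicate 1 or 2 it was 7, in place of 11. The 2 higher genes at 6 h became 1 without treated replicate 1 or either untreated replicate. At 10 h the count of higher genes was 1 without treated replicate 1, 2 without treated replicate 2, 0 without untreated replicate 1 and 1 without untreated replicate 2, in place of 3.

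Taken over 1 to 10 h, 17 of the 39 genes were lower at some time and 4 higher at some time, and 21 were called at no time. These were 43.6%, 10.3% and 53.8% of the set, against 13.9%, 12.1% and 74.8% of all genes and 24.5%, 21.3% and 55.7% of those above the median level. Dkc1, Wdr12, Nop2, Nip7 and Rrp1b were lower at both 3 and 6 h (12.8%, against 3.8% of all genes and 7.06% of those above the median level). Of these, Dkc1 alone kept its 6 h call under all 11 alternatives. The 6 h call was lost under 7 of the 11 for Nip7, 3 for Nop2, 2 for Rrp1b and 1 for Wdr12. Of the other genes of the set, 6 were lower at 3 h and not at 6 h and 6 at 6 h and not at 3 h, against 4.75% and 4.16% of all genes. This does not by itself show that their effects differed between these times. Of the 11 genes lower at 3 h, 8 had further probe sets. Of these 11 other probe sets, 10 lay below 0 at 3 h, some of them close to it (Ddx21 -0.01, Nop16 -0.04 and Nip7 -0.07). The genes were picked as lower on the same arrays, so this count is a description and no separate support.

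The change of the treatment effect between times was tested directly. From 1 to 3 h the effect became lower for Dkc1 (-0.46 ± 0.0709), Rrp1b (-0.55 ± 0.0977), Polr1b (-0.43 ± 0.12), Wdr12 (-0.33 ± 0.0798) and Nop2 (-0.32 ± 0.0796), 5 of 39 against 3.94% of all genes. It became higher for 0 of 39, against 2.47% of all genes, and 16 of the 39 had an unadjusted p under 0.05. From 3 to 6 h it became higher for Rrs1 (0.54 ± 0.0833) and Tsr1 (0.23 ± 0.054), against 2.86% of all genes, and lower for 0, against 1.69%. From 6 to 10 h it became higher for Rrp1b (0.51 ± 0.0977), Dkc1 (0.51 ± 0.0709), Wdr12 (0.35 ± 0.0798) and Nop2 (0.35 ± 0.0796), against 1.11% of all genes, and lower for 0, against 1.33%. Over these last hours 35 of the 39 changes were above 0, with a median of 0.17 against 0.02 over all genes. From 1 to 10 h, Dkc1 alone changed (0.29 ± 0.0709), against 1.62% of all genes higher and 2.4% lower. The counts at an unadjusted p under 0.05 were 10, 18 and 7 of 39 for these last 3 tests. The tests from 1 to 3 h and from 6 to 10 h share no arrays. Under all 15 alternatives the changes of Dkc1 and Rrp1b from 1 to 3 h and from 6 to 10 h and that of Rrs1 stayed past the threshold. Those of Nop2, Polr1b, Wdr12 and Tsr1, and that of Dkc1 from 1 to 10 h, were each lost under 5 to 7 of the 15, most of them with an array left out. For Rrp1b, the next brightest probe set gave nearly the same treated-minus-untreated difference at 1 h (-0.08) and 3 h (-0.09). The dimmest probe set of Rrp1b gave 0.12 and -0.11 at these times. The count of 5 from 1 to 3 h became 2 without treated 3 h replicate 2, and 3 without replicate 2 of treated 1 h, untreated 1 h or untreated 3 h cells. That of 2 from 3 to 6 h became 4 without treated 6 h replicate 2, and 1 without treated 6 h replicate 1, untreated 3 h replicate 1 or untreated 6 h replicate 2. That of 4 from 6 to 10 h became 2 without treated 10 h replicate 2 or replicate 1 of untreated 6 h or 10 h cells. The change of Dkc1 from 1 to 10 h was lost without treated 1 h replicate 2, either replicate of treated 10 h cells, or replicate 1 of untreated 1 h or 10 h cells.

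Each arm was also set against its own 0 h cells. In treated cells, 14 of 39 genes were lower at 3 h and 0 higher, against 8.28% and 7.55% of all genes. At 6 h, 17 were lower and 0 higher, against 12.8% and 11.2%. At 10 h, 15 were lower and 2 higher (Gnl3 and Wdr43), against 13.6% and 14.5%. The medians of the treated arm were -0.15, -0.14 and -0.14. In untreated cells, 2 genes were lower at 3 h (Fbl and Ncl) and 6 higher (Dkc1, Gnl3, Wdr43, Wdr12, Nop2 and Nip7), against 3.21% and 4.95% of all genes. At 6 h, 7 were lower and 5 higher, against 10.3% and 10.4%. At 10 h, 19 were lower and 0 higher, against 12.8% and 13.3%, with a median of -0.18 against 0.03 over all genes. Among genes above the median level, 23.6% were lower in untreated cells at 10 h and 24.6% in treated cells. At 1 h, 0 of 39 were called in treated cells (10 unadjusted) and 0 in untreated cells (8 unadjusted), against 3.51% and 0.187% of all genes.

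Several of these counts rested on single arrays. In treated cells the 14 lower genes at 3 h became 4 without treated 0 h replicate 2 and 7 without treated 3 h replicate 1, the 17 at 6 h became 11 without treated 6 h replicate 2, and the 2 higher genes at 10 h became 1 without any of the 4 arrays in turn. In untreated cells the 6 higher genes at 3 h became 2 or 3, the 2 lower ones 0 or 1, and the 5 higher ones at 6 h 1 to 3 without any of the 4 arrays in turn, whereas the 19 lower genes at 10 h stayed at 17 to 19. Under all alternatives, 12 of these 19 kept their call: Bop1, Bysl, Dkc1, Fbl, Ltv1, Mybbp1a, Ncl, Nhp2, Nop56, Rrp12, Rrp1b and Rrs1. In treated cells, 8 of the 17 called at 10 h kept it (Bysl, Fbl, Ltv1, Ncl, Nhp2, Nip7, Noc2l and Rrp12).

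**Figure D3:**
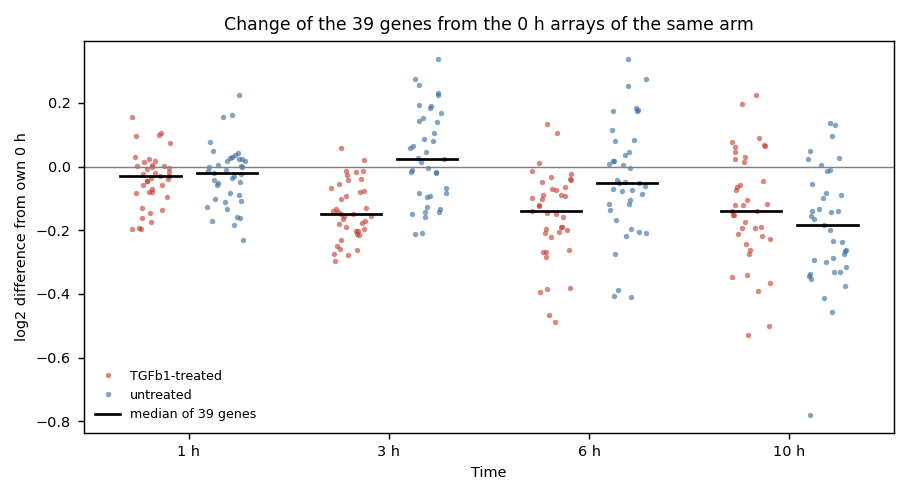
Log2 difference of each of the 39 genes from the 0 h arrays of its own arm (points, with random sideways spread) at 1, 3, 6 and 10 h, in TGFβ1-treated (red) and untreated cells (blue); black bars are medians. The treated median lies at -0.15 by 3 h and stays near it, whereas the untreated median is near 0 at 3 h and lowest, at -0.18, at 10 h.

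By 10 h, 12 of the 39 genes (30.8%) were lower than at 0 h in both arms, against 9.05% of all genes and 17.1% of those above the median level: Nop56, Fbl, Nhp2, Ncl, Nolc1, Mybbp1a, Noc4l, Bysl, Ltv1, Rrp12, Bop1 and Noc2l. Another 3 (Rrp9, Nip7 and Wdr74) were called in treated cells only and 7 (Dkc1, Polr1a, Polr1b, Heatr1, Tsr1, Rrs1 and Rrp1b) in untreated cells only, against 4.52% and 3.76% of all genes. Rrp12 fell most: by 0.53 in treated cells (adjusted p = 5.55e-05) and by 0.78 in untreated cells (adjusted p = 5.99e-07). Nhp2 fell by 0.50 in treated cells and by 0.46 in untreated cells, and Fbl fell by 0.39 in treated cells and by 0.35 in untreated cells. Dkc1 was 0.06 in treated cells, without a call, and fell by 0.27 in untreated cells (adjusted p = 0.000345).

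Dkc1, Gnl3, Wdr12, Nop2 and Nip7 were higher in untreated cells at 3 h than at 0 h and also lower in treated than in untreated cells at 3 h. These comparisons share the untreated 3 h arrays, so the values are given by arm. At 3 h against 0 h, Dkc1 was -0.23 in treated cells and 0.18 in untreated cells, and Wdr12 was -0.15 in treated cells and 0.34 in untreated cells. Gnl3 was -0.01 in treated cells and 0.28 in untreated cells. The difference within the treated arm passed the test for Dkc1 (adjusted p = 0.00215), Nop2 (0.0302) and Nip7 (0.0113) and did not for Wdr12 (0.0841) and Gnl3 (0.926). Several of these calls depended on the setting. In untreated cells Gnl3 kept its call under all 11 alternatives, while Dkc1 and Nip7 each lost it under 7 and Nop2 under 8. Wdr12 lost it under 1, the mean of its probe sets (0.16). In treated cells the call was lost under 1 of 11 for Dkc1, 6 for Nop2 and 4 for Nip7.

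A wider set of 141 other ribosome biogenesis genes, 132 of them measured, was listed by role. At 3 h, 27 were lower and 5 higher in treated than in untreated cells (20.5% and 3.79%), with a median of -0.08. At 6 h, 20 were lower and 2 higher, and at 10 h 3 were lower and 9 higher. Over all genes, 8.55% were lower and 6.73% higher at 3 h. The shares were 7.96% and 7.77% at 6 h, and 4.06% and 5.07% at 10 h. The lowest was Rpf2, which works with Rrs1 in placing the 5S particle: it read 8.71 and 8.88 at 3 h in treated cells, against 9.33 and 9.41 at 3 h in untreated cells (-0.58 ± 0.0765, adjusted p = 8.39e-06). Its other probe sets gave -0.36, 0.12 and 0.05. Among small subunit factors, Krr1 (-0.37), Imp3 (-0.33) and Nol11 (-0.33) were lower at 3 h. The exosome, which trims precursor RNA, had 4 of 14 genes lower and 1 higher at 6 h, with Exosc7 at -0.40 and its nuclease gene Dis3 at -0.32.

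Of 13 other RNA polymerase I transcription genes measured, 3 were lower at 3 h (Polr1e -0.39, Polr2h -0.34 and Rrn3 -0.25) and Ubtf was higher. Ubtf encodes UBF, the activator that keeps ribosomal DNA open for RNA polymerase I. It read 9.96 and 9.95 at 0 h, 9.92 and 9.87 at 1 h, 10.03 and 10.09 at 3 h, 9.21 and 9.01 at 6 h, and 9.05 and 9.01 at 10 h in treated cells. In untreated cells Ubtf read 9.94 and 9.97 at 0 h, 9.80 and 9.85 at 1 h, 9.36 and 9.36 at 3 h, 9.22 and 9.07 at 6 h, and 8.94 and 8.96 at 10 h. On this probe set the arms were close at 0 and 1 h and far apart at 3 h, where treated arrays were near their 0 h level and untreated arrays under theirs, and both were low from 6 h on. Ubtf was 1.62-fold higher in treated cells at 3 h (0.70 ± 0.0614, adjusted p = 2.91e-08), and its other, dimmer probe set, which was not tested, gave 0.46, 1.06, 0.34 and 0.35 at 1, 3, 6 and 10 h.

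Few genes of the cytosolic ribosomal proteins, the products that these factors assemble, passed the test. Of 79 listed cytosolic ribosomal protein genes, only 44 were measured. Of these 44, 1 was lower at 3 h (Rpl12, -0.34), the same gene at 6 h (-0.24) and 0 at 10 h (1 unadjusted). At these times 0 were higher, and the medians were -0.01, -0.02 and -0.02. Of 76 mitochondrial ribosomal protein genes, 6 were lower at 3 h, 20 at 6 h and 22 at 10 h, with medians of -0.02, -0.10 and -0.07. Over all genes, 8.55%, 7.96% and 4.06% were lower at 3, 6 and 10 h. At 10 h the nucleolar set had 0 lower genes.

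**Figure D4:**
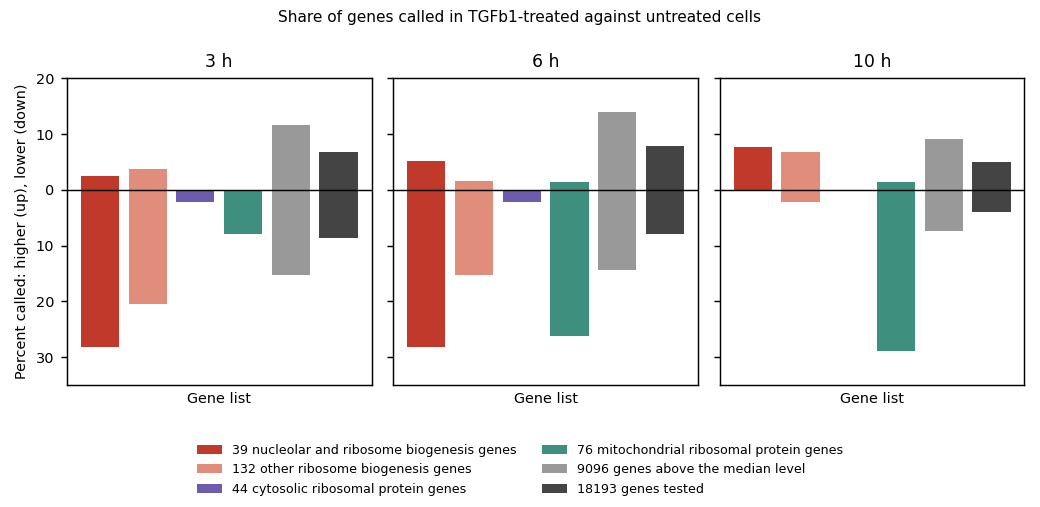
Percent of each gene list called higher (above the line) or lower (below it) in TGFβ1-treated against untreated cells at 3, 6 and 10 h, for the 39 nucleolar and ribosome biogenesis genes, 132 further ones, 44 cytosolic and 76 mitochondrial ribosomal protein genes, the 9096 genes above the median level and all 18193 genes. The 39 genes have 28.2% lower at 3 and 6 h and 0 at 10 h, and the cytosolic ribosomal proteins at most 2.27%.

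Myc was past the threshold at 1 h, when 0 of the 39 genes were. It read 9.99 and 10.09 at 0 h, 8.93 and 8.90 at 1 h, 10.11 and 10.27 at 3 h, 10.47 and 10.51 at 6 h, and 10.55 and 10.49 at 10 h in treated cells. In untreated cells Myc read 10.04 and 10.13 at 0 h, 10.11 and 10.07 at 1 h, 10.18 and 10.15 at 3 h, 9.98 and 10.04 at 6 h, and 9.93 and 9.99 at 10 h. Myc was 2.26-fold lower in treated cells at 1 h (-1.18 ± 0.0562, adjusted p = 3.31e-12), level with untreated cells at 3 h (0.03, adjusted p = 0.854), and higher at 6 h (0.48) and 10 h (0.56, adjusted p = 6.88e-07). Of the 12 genes of the MYC/MAX network, 1 was higher and 3 lower at 3 h, 4 higher and 1 lower at 6 h, and 3 higher and 1 lower at 10 h. Mxi1, a MAX partner that opposes MYC, was higher at 3 h (0.53), Mlxip was lower then (-0.45), and Mlx was lower at 3, 6 and 10 h (-0.36, -0.42 and -0.35). Mnt, another opponent of MYC, was lower at 3 h (-0.24) and higher at 6 h (0.28) and 10 h (0.33). Mxd4 was higher at 6 h (0.27), and Mycl at 6 h (0.68) and 10 h (0.64). Max, Mycn, Mxd1, Mxd3 and Mga had no call at 3, 6 or 10 h. Whether these changes bear on the nucleolar genes was not tested.

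**Figure D5:**
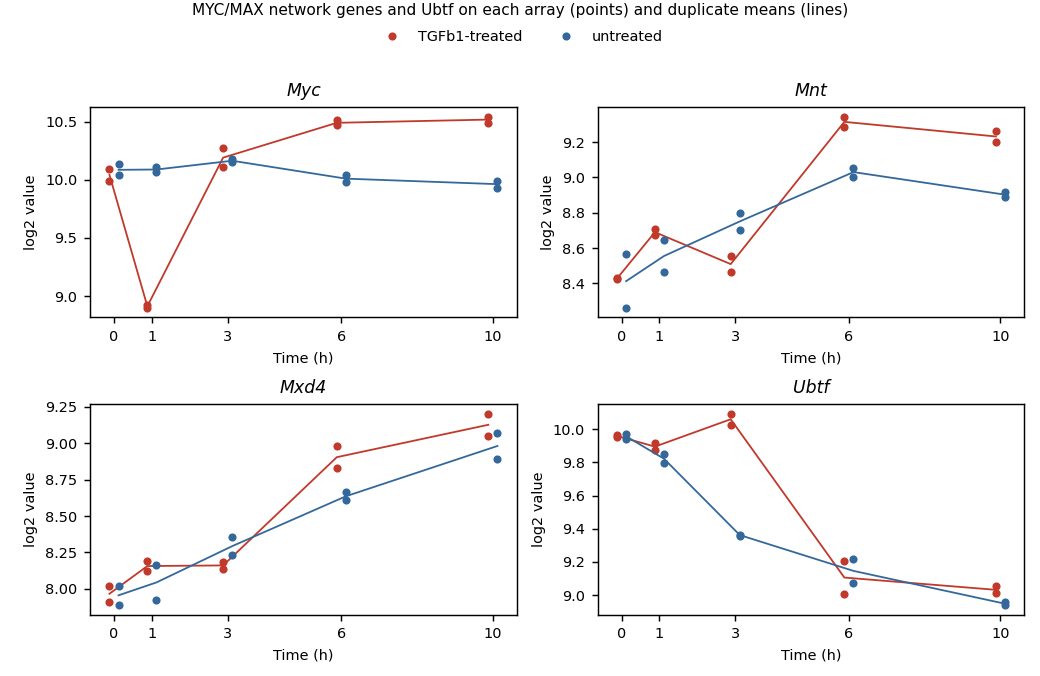
Log2 values of Myc, Mnt, Mxd4 and Ubtf on each array (points) against time in hours, with duplicate means joined by lines, in TGFβ1-treated (red) and untreated cells (blue). Myc drops in treated cells at 1 h alone, and Ubtf stays high in treated cells at 3 h while it is lower in untreated cells.

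Markers of hepatocytes and of other cell types also differed with treatment. Of 4 cholangiocyte markers, Krt7, Sox9 and Epcam were higher in treated cells at 3 and 6 h and Krt19 was not past the threshold. The log2 of their summed level was 11.53 to 11.63 in treated cells and 11.13 to 11.22 in untreated cells at 3 h. It was 11.60 in treated and 11.16 to 11.20 in untreated cells at 1 h. At 10 h it was 11.79 to 11.80 in treated and 11.21 to 11.28 in untreated cells. At 10 h both treated arrays were above both untreated arrays for Krt7 and Epcam and under them for Krt19, and they overlapped for Sox9. Of 8 hepatocyte markers, Afp was lower at 3, 6 and 10 h and Alb at 6 and 10 h, and their summed level at 10 h was 13.23 to 13.27 in treated cells and 13.75 to 13.76 in untreated cells. Of 6 fibroblast markers, Col1a1 was higher at 3 h (1.22). Col1a1 read 5.38 and 5.70 at 6 h in treated cells, against 4.41 and 4.79 in untreated cells. The summed level of the 6 markers at 3 h was 13.37 to 13.41 in treated cells and 13.43 to 13.44 in untreated cells. Dcn (mean 13.42) makes up nearly all of this sum, so the sum cannot show changes of the other fibroblast markers. Of 4 endothelial and 6 leukocyte markers, 0 were past the threshold at 3, 6 or 10 h by limma, with at most 1 of either list at an unadjusted p under 0.05. The part of these markers in the results for nucleolar genes was not tested.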

How the data were processed

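Total RNA was measured on 20 Affymetrix arrays and read as log2 expression values that the authors had made with RMA, per the submitters' processing notes; its software version is not given in the sources used here. The quantile step of RMA makes each difference relative to the other transcripts. The deposited table held 45037 probe sets, with values from 1.44 to 14.7 and array medians from 5.15 to 5.21. The platform annotation gave 1 gene to 34945 probe sets, several to 932 and none to 9160. Per gene the probe set with the highest mean was kept, which left 18193 genes, 162 of them not in the RefSeq table. Duplicates correlated at 0.9958 to 0.9971 and were used as separate samples.

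Groups were compared with limma 3.58.1 (R 4.3.3), with a mean for each of the 10 groups over all 20 arrays (10 residual degrees of freedom), eBayes with a variance trend, and Benjamini-Hochberg adjustment over all genes within each of 17 comparisons. The code was tested on simulated data. Python 3.11.15 with pandas 2.3.3, numpy 2.4.6 and matplotlib 3.10.9 handled promoters and figures. Alternatives were a further quantile normalization, centring on the array median, the mean of probe sets, genes above the median level, no variance trend, only the arrays compared, the replicate number as a block, and leaving out each array in turn.

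The members and lists were chosen with earlier results of these data known. Per-array values are given for up to 3 genes of each role with the lowest adjusted p over 1 to 10 h, for the largest difference each way at each time and for Myc; up to 3 genes per comparison are named from other lists. Ubtf and Rpf2, the largest differences in their lists, have per-array values chosen after these were seen. The labels call the duplicates biological replicates without naming separate cultures, so p-values measure the spread between these samples.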

Additional observations from a re-analysis of the deposited data

Results flagged for a closer look

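For 7 genes the effect of TGFβ1 differed between time points by a direct test of the difference of effects (limma, with SE and adjusted p), and these 12 results call for a closer look. From 1 to 3 h the effect moved down for Dkc1 (-0.46 ± 0.0709, adjusted p = 0.000191), Rrp1b (-0.55 ± 0.0977, adjusted p = 0.000781), Polr1b (-0.43 ± 0.12, adjusted p = 0.034), Wdr12 (-0.33 ± 0.0798, adjusted p = 0.0132) and Nop2 (-0.32 ± 0.0796, adjusted p = 0.0146). From 3 to 6 h it moved up for Rrs1 (0.54 ± 0.0833, adjusted p = 0.000491) and Tsr1 (0.23 ± 0.054, adjusted p = 0.0136). The next brightest probe set of Rrp1b, not used in the test, gave -0.08 at 1 h and -0.09 at 3 h.

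From 6 to 10 h the effect moved up for Dkc1 (0.51 ± 0.0709, adjusted p = 0.000188), Rrp1b (0.51 ± 0.0977, adjusted p = 0.00415), Wdr12 (0.35 ± 0.0798, adjusted p = 0.0163) and Nop2 (0.35 ± 0.0796, adjusted p = 0.0163), all of which had moved down from 1 to 3 h. From 1 to 10 h it moved up for Dkc1 (0.29 ± 0.0709, adjusted p = 0.0231). Groups of 2 arrays were not tested for a single array far from its group.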

How the results depend on the processing

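Of 127 results past the threshold for single genes of the set, none changed sign under any alternative; 1171 of 1445 alternative values kept the call and 274 lost it, 176 of these with an array left out. With no variance trend, 2 genes of the set became 1 higher and 11 became 7 lower at 6 h in treated against untreated cells, and 1 was higher at 10 h. Against 0 h that setting gave 8 lower in treated cells at 3 h, 2 higher and 0 lower in untreated cells at 3 h and 3 higher at 6 h, and the effect changed for 2 genes from 1 to 3 h, 1 from 3 to 6 h, 2 from 6 to 10 h and 0 from 1 to 10 h. With the mean of a gene's probe sets, 0 were higher at 3 h, 0 higher and 7 lower at 6 h, 2 and 3 higher in untreated cells at 3 and 6 h, and 1 higher in treated cells at 10 h. Only the arrays compared gave 1 higher and 7 lower at 6 h, and 4 effects higher from 3 to 6 h. Each array centred on its median gave 7 lower at 6 h and 3 higher in untreated cells at 6 h. A further quantile normalization gave 1 higher at 10 h, 1 called in untreated cells at 1 h, 1 lower there at 3 h, 1 higher in treated cells at 6 h, and 4 effects higher from 3 to 6 h and 2 from 1 to 10 h. Genes above the median level alone gave 1 higher in untreated cells at 10 h, 1 higher in treated cells at 6 h, and 8 effects lower from 1 to 3 h, 5 higher from 3 to 6 h and 2 from 1 to 10 h. For these shifts the cause was not tested.

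With an array left out in turn, the treated against untreated counts ran over 1 to 1 higher and 9 to 12 lower at 3 h, 1 to 2 higher and 5 to 8 lower at 6 h, and 0 to 2 higher at 10 h. Against 0 h, untreated cells had 2 to 3 higher and 0 to 1 lower at 3 h, 1 to 3 and 5 to 7 at 6 h, and 0 to 1 and 17 to 19 at 10 h. Treated cells had 4 to 10 lower at 3 h, 0 to 1 higher and 11 to 13 lower at 6 h, and 1 to 1 higher and 11 to 13 lower at 10 h. Effects lower from 1 to 3 h ran over 2 to 7, higher from 3 to 6 h over 1 to 4, from 6 to 10 h over 2 to 4 and from 1 to 10 h over 0 to 2.

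The replicate block gave 1 gene called in treated cells at 1 h against 0 h, in place of 0, and 8 effects lower from 1 to 3 h, in place of 5; other counts of the set stayed within 1.5 times. The numbers do not pair the samples: deviations of same-numbered treated and untreated arrays correlated at 0.05, 0.08, -0.06, 0.09 and 0.00 at 0, 1, 3, 6 and 10 h.

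Over all genes, no variance trend gave 610 higher and 489 lower at 10 h in treated against untreated cells, in place of 923 and 739, and 551 higher and 314 lower in untreated cells at 3 h, in place of 901 and 584. The 34 genes called in untreated cells at 1 h became 0 with only the arrays compared and 1, 4 and 21 with no trend, the mean of probe sets and centring. Changes of effect fell, with no trend, to 220 higher and 155 lower from 3 to 6 h (521 and 307), 91 and 149 from 6 to 10 h (202 and 242), and 161 and 261 from 1 to 10 h (295 and 437), and with the mean of probe sets to 247 and 195, 134 and 153, and 190 higher. RMA values hold no detection call here, so differences of dim probe sets are limited by this. All 39 genes of the set had a mean above that of the median gene, and how far dim probe sets limit other lists was not tested.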

Other observations

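The genes that assemble snoRNPs, as against the snoRNP proteins themselves, were measured for 8 of 10 listed genes. In treated against untreated cells 1 was lower at 3 h (Ruvbl1, an AAA ATPase, -0.20 ± 0.0444, adjusted p = 0.00238), 3 were lower at 6 h and 1 was higher at 10 h by limma. At 6 h these were Ruvbl1 (-0.24, adjusted p = 0.00045), Naf1, which helps build box H/ACA particles (-0.24, adjusted p = 0.00378), and Pih1d1 (-0.22, adjusted p = 0.0383). Their median was -0.15 at 6 h, against -0.03 over all genes tested.

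Of 3 measured genes listed for the 5S particle and the response to nucleolar stress, Mdm2, the ubiquitin ligase of p53, was lower in treated cells at 3 h (-0.40 ± 0.0649, adjusted p = 0.000109) and still by 6 h (-0.23 ± 0.0649, adjusted p = 0.0151). At 10 h, 0 of the 3 genes were past the threshold by limma, with 0 at an unadjusted p under 0.05.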
